A study of Mus musculus with 2 samples.

Results

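The genes described here are the 45 that encode the proteins which mark DNA replication origins, load and switch on the replicative helicase, copy DNA at the fork and supply its deoxynucleotides. They were listed by name for their function, with no threshold on a measured value, and all 45 were found and measured, out of 12135 measured genes among 16881 transcripts. The study sequenced RNA from immortalised embryonic fibroblasts (MEFs) of C57BL/6 mice, 1 library of p65+/+ cells (wild-type) and 1 of p65-/- cells (p65-null), with no stimulus named in the labels. p65, the product of Rela, is a subunit of the transcription factor NF-kB, and the comparison shows which transcripts differ between the libraries with and without it. The labels state neither how the cells were immortalised, nor whether each line is 1 clone, nor which exons the null allele lacks. With 1 library per genotype no difference has a replicate check, no test was possible and no p-value is given, and genotype, cell line and library cannot be told apart. Levels are in CPM, the fragments of a gene scaled to the normalised size of its library. A ratio is the p65-null over the wild-type level on the log2 scale, so that 1 is 2-fold higher and -1 is 2-fold lower in p65-null cells. The range in parentheses after a ratio is its 95% Clopper-Pearson interval, which covers counting error in these 2 libraries only.

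Eukaryotic replication is prepared in G1, when the origin recognition complex (ORC) with Cdc6 and Cdt1 loads rings of MCM2-7 onto DNA, and started in S phase, when kinases recruit Cdc45 and GINS to turn each ring into the active CMG helicase. DNA polymerase alpha-primase then lays primers, the clamp loader RFC places the PCNA clamp, polymerase epsilon extends the leading strand and polymerase delta the lagging strand, whose Okazaki fragments are trimmed and ligated. Many of these genes are transcribed at the G1/S boundary by E2F factors under the control of the retinoblastoma proteins, so their RNA is abundant in cycling fibroblasts and low in quiescent ones. In RNA from a whole culture, fewer cycling cells and less RNA per cell cannot be told apart.

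The libraries held 20794476 wild-type and 15441394 p65-null fragments. Rela was at 90.5 CPM in wild-type and 13.1 CPM in p65-null cells, 6.90-fold lower (5.96 to 8.03), in the direction its labels give. All 10 fibroblast markers looked up were measured, and their summed level was 12110 CPM in wild-type and 24750 CPM in p65-null cells, Thy1 alone being lower by more than 2-fold. Of the 6 epithelial markers 0 were measured, with summed levels of 0.118 and 2.81 CPM, and Epcam, Cdh1, Krt5 and Krt18 were at 0 in the wild-type library. Summed endothelial, leukocyte and muscle markers stayed under 5 CPM in both libraries, while neural markers summed to 86.9 CPM in wild-type and 35.4 CPM in p65-null cells. The part of culture composition in the results below was not tested.

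The replication genes lay close to equal levels in the 2 libraries. Only Orc2 and Orc4, both of the origin recognition complex, had levels at least 2-fold lower in p65-null cells, which is 2 of 45 genes (4.44%) where 13.7% of all measured genes were so. At least 2-fold higher were 0 of 45, against 12.2% of all measured genes, so 43 (95.6%) lay within 2-fold, against 74.1% of all measured genes. At the smaller threshold of 1.5-fold, 5 were lower (11.1%, against 25% of all measured genes), namely Orc2, Orc3, Orc4, Pola1 and Rfc1. Higher by 1.5-fold were Mcm5 and Lig1, 2 of 45 or 4.44%, against 22.2%. The members had 394 to 9234 wild-type and 141 to 10067 p65-null fragments. The counting interval lay wholly below 0 for 17 members (37.8%, against 41.2% of all measured genes), wholly above 0 for 21 (46.7%, against 38.1%) and held 0 for 7.

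The median log2 ratio of the 45 genes was 0.04, with an interquartile range of -0.23 to 0.27. Over all measured genes the median was -0.03 and the interquartile range -0.58 to 0.50, and 36 of the 45 members lay between percentiles 25 and 75 of all ratios. The members had more fragments than most genes, with a median of 80.6 CPM in wild-type and 86.6 CPM in p65-null cells, against 28.3 and 26.7 CPM over all measured genes. Ratios of abundant genes spread less, so the members were also set beside the 7598 genes with a mean level at least that of the least abundant member. Of these, 10.6% were at least 2-fold lower and 6.17% at least 2-fold higher, with an interquartile range of -0.54 to 0.37. The summed level of the 45 genes was 5845 CPM in wild-type and 6417 CPM in p65-null cells, with a log2 ratio of 0.13.

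**Figure D1:**
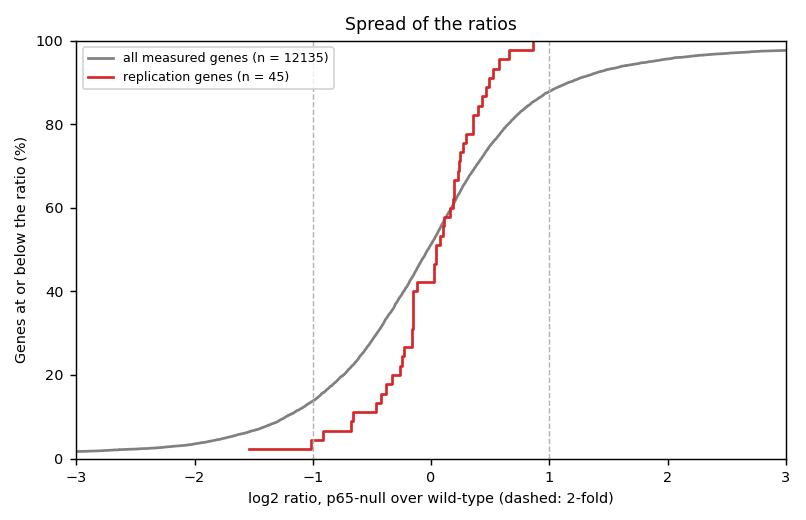
Cumulative share of genes (vertical axis, %) at or below each log2 ratio of p65-null over wild-type level (horizontal axis), for the 45 replication genes (red steps) and all 12135 measured genes (grey), with dashed lines at 2-fold. The red steps climb within a narrower span: 43 of 45 members lie between the dashed lines, and genes beyond the horizontal range are not drawn.

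**Figure D2:**
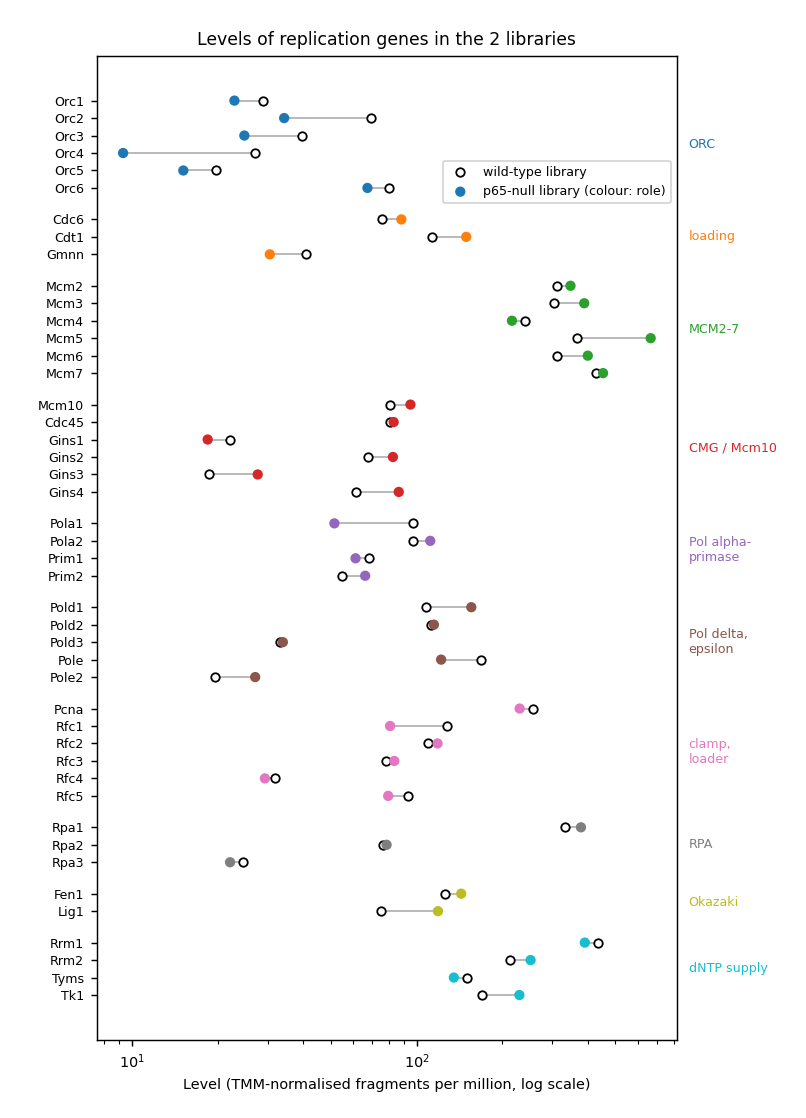
Level of each replication gene (CPM, log axis) in the wild-type library (open points) and the p65-null library (filled points, coloured by role), with a line joining the 2 values of a gene. The longest lines belong to Orc4, at 27.1 and 9.31 CPM, and Orc2, at 69.3 and 34.3 CPM.

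Ratios in these libraries moved with the base composition of the transcript. Across all measured genes with a known transcript sequence, the log2 ratio had a Spearman correlation of 0.434 with GC content (12059 genes), and across the 45 members of 0.656, as a description of points that all come from the same 2 libraries. The 10 members with less than 45% GC had a median ratio of -0.27, and all measured genes of that class -0.69. Members with 45% to 50% GC had a median of -0.06 (18 genes), against -0.18 for all genes of the class, and the 17 members with 50% GC or more had 0.24, as had all genes of that class. A loess correction for GC content and length brought the members' correlation with GC to -0.0462. After it, 0 members were 2-fold apart, where 9.17% of all measured genes were lower and 11.2% higher by that much. At least 1.5-fold lower was 1 (Orc2), against 19.7% of all measured genes, and 4 (Mcm5, Mcm6, Gins3 and Pole2) were higher, against 20.2%. Of the 45 ratios, 15 lay on the other side of 0 after the correction. The corrected ratio is therefore given below beside each gene or group for which it turns the direction or crosses a threshold. Whether GC content or the biology of the cells sets these ratios was not tested.

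**Figure D3:**
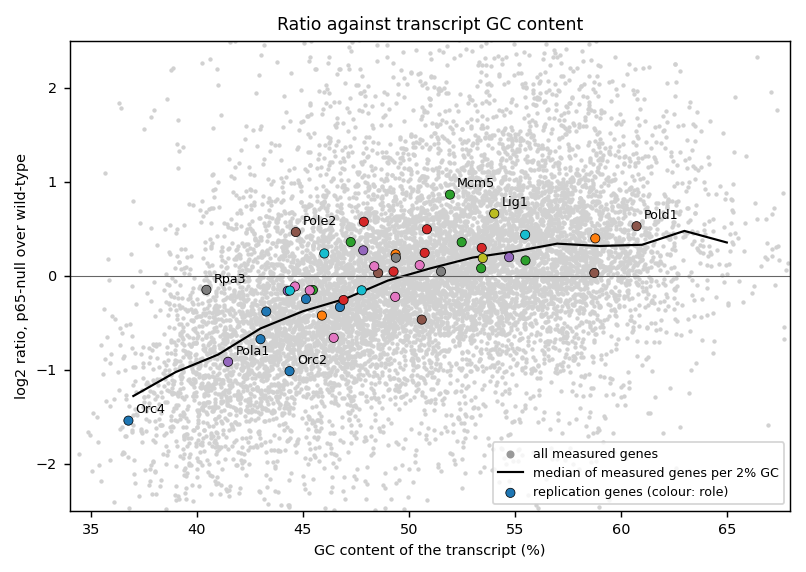
Log2 ratio of p65-null over wild-type level (vertical axis) against GC content of the transcript (horizontal axis, %) for all measured genes (grey), their median in bins of 2% GC (black line) and the 45 replication genes (coloured by role). Orc4 and Pola1 lie near the black line at low GC, while Mcm5, Pole2 and Lig1 lie above it and Orc2 below it, and genes beyond the vertical range are not drawn.

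The level at which 0 sits also depends on the scaling of the libraries. Scaling to the ribosomal protein genes moved the median ratio of all measured genes by -0.41 and upper quartile scaling moved it by 0.11, with the members moving by the same amounts. Under scaling to ribosomal protein genes, 19 members that were higher in p65-null cells became lower, and under scaling by total counts 4 did (Cdc45, Pold2, Pold3 and Rpa2). The members' median stood 0.07 above that of all measured genes under each of these scalings.

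The origin recognition complex, the ATP-driven assembly that marks origins and recruits the helicase, was lower in the p65-null library in all 6 subunits, under each library scaling tried, with a median log2 ratio of -0.53. After the GC and length correction the median was -0.16, with 5 subunits below 0 and Orc5 above it at 0.08. The 6 transcripts had GC contents of 36.8% to 46.7%. All measured genes with less than 45% GC had a median log2 ratio of -0.69, and those with 45% to 50% GC had -0.18. Of all 12135 measured genes, 6216 were below 0 and 5919 above it before the correction. Summed over the complex, the level was 265 CPM in wild-type and 174 CPM in p65-null cells.

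Orc4, an ATPase-fold subunit of the ORC ring (transcript NM_011958, chromosome 2, 48902824 to 48952902), had 27.1 CPM in wild-type and 9.31 CPM in p65-null cells. It was thus 2.91-fold lower in p65-null cells (2.42 to 3.53), the lowest ratio of the 45 genes at -1.54, but its transcript also had the lowest GC content of them, 36.8%, and the corrected ratio was -0.19. The annotated span of Orc4 overlaps that of Mbd5 by 3404 bases and of Acvr2a by 441 bases, and the sources used here do not state whether reads were assigned by strand. Orc2, another core subunit (NM_008765, chromosome 1, 58462771 to 58505113), had 69.3 CPM in wild-type and 34.3 CPM in p65-null cells, 2.02-fold lower (1.83 to 2.24). Its corrected ratio of -0.59 was the lowest of the 45, while the uncorrected counting interval, -1.16 to -0.87, spans 2-fold.

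Orc3 (chromosome 4, 34566781 to 34614963), also of the ORC core, was at 39.7 CPM in wild-type and 24.8 CPM in p65-null cells, with a log2 ratio of -0.68 (-0.86 to -0.50) that became -0.18 with the correction. Orc1, the subunit that confers ATPase activity on the complex, was at 28.9 and 22.9 CPM in the same order, a ratio of -0.33 (-0.53 to -0.14). Its annotated span overlaps Prpf38a by 3632 bases, and the corrected ratio was -0.13. Orc5, a further core subunit, had 19.7 CPM in wild-type and 15.2 CPM in p65-null cells. Orc6, the smallest and least tightly bound subunit, had 79.9 and 67.2 CPM, a ratio of -0.25 (-0.36 to -0.14). Per kilobase of transcript Orc6 was the most abundant subunit and Orc4 the least in both libraries. Their levels were 62.1 and 6.67 CPM per kb in the wild-type library, a span of 9.31-fold, and 52.2 and 2.29 CPM per kb in the p65-null library, a span of 22.8-fold.

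**Figure D4:**
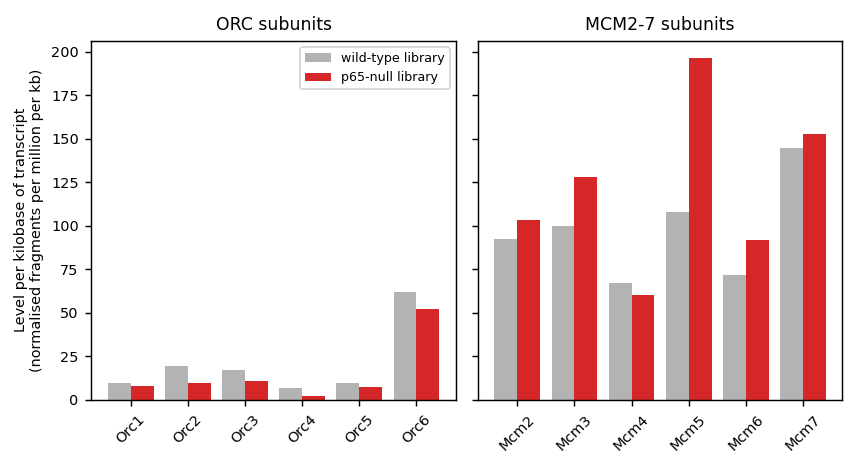
Level per kilobase of transcript (CPM per kb) of the 6 ORC subunits (left) and the 6 MCM2-7 subunits (right), 1 bar per library with grey for wild-type and red for p65-null. All 6 ORC bars are shorter in the p65-null library, and Mcm5 passes Mcm7 to become the tallest bar there, at 196.6 CPM per kb.

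Of the 3 genes that encode the helicase loading factors and their inhibitor, Cdc6 and Cdt1 went the other way from ORC and Gmnn the same way. Cdc6, the ATPase that completes the loading complex with ORC, was at 75.5 CPM in wild-type and 88.4 CPM in p65-null cells, with a log2 ratio of 0.23 (0.12 to 0.33). Cdt1, which brings the MCM ring to ORC, was at 114 and 149 CPM, a ratio of 0.40 (0.31 to 0.48), but at -0.04 after the correction, its transcript being 58.8% GC. Gmnn, encoding geminin, the inhibitor that binds Cdt1 to block relicensing, was at 40.9 CPM in wild-type and 30.5 CPM in p65-null cells, a ratio of -0.43 (-0.59 to -0.26). Both activators were thus higher and the inhibitor lower in p65-null cells, except that all 3 were lower under scaling to ribosomal protein genes and Cdt1 after the GC and length correction.

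The helicase ring MCM2-7, which unwinds the template ahead of the fork, was higher in the p65-null library in 5 of 6 subunits, though in 4 after the GC and length correction and in Mcm5 alone under scaling to ribosomal protein genes. The summed level of the ring was 1960 CPM in wild-type and 2468 CPM in p65-null cells, and its median log2 ratio was 0.26, or 0.18 with the correction. Mcm5 (NM_008566, chromosome 8, 75109468 to 75128439), the subunit that forms the DNA gate with Mcm2, had 365 CPM in wild-type and 665 CPM in p65-null cells. It was 1.82-fold higher in p65-null cells (1.77 to 1.87), the highest ratio of the 45 genes, at percentile 85.4 of all measured genes, and its corrected ratio was 0.73.

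Mcm3 was at 303 CPM in wild-type and 388 CPM in p65-null cells, with a log2 ratio of 0.36 (0.31 to 0.41), and 0.17 corrected. Mcm6, a neighbour of Mcm2 in the ring, was at 312 and 400 CPM, a ratio of 0.36 (0.31 to 0.41) that became 0.59 with the correction. Mcm2, which also binds histones, was at 311 CPM in wild-type and 347 CPM in p65-null cells, and Mcm7 at 428 and 452 CPM. These last ratios, 0.16 and 0.08, became -0.14 and -0.15 with the correction. Mcm4, part of the catalytic core with Mcm6 and Mcm7, was the only subunit lower in p65-null cells before the correction, at 240 and 216 CPM, with a ratio of -0.15 (-0.22 to -0.09) and 0.18 corrected.

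The ring holds its subunits in equal numbers, yet their RNA levels were not equal. Per kilobase, the wild-type library ranged from 67.0 CPM for Mcm4 to 144.6 CPM for Mcm7, a span of 2.2-fold. The p65-null library ranged from 60.3 CPM per kb for Mcm4 to 196.6 CPM per kb for Mcm5, a span of 3.26-fold.

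In the sequences below, capitals mark matches to the E2F core motif in promoters of replication genes. The motif was searched as TTTNNCGC with C or G at each N, on both strands, in RefSeq promoter windows from 250 bases before to 50 bases after the transcript start (GRCm38.p6). Mcm5 is shown because it had the highest ratio of the 45 genes, and Mcm6 because its 3 matches are the most in any member, while Cdc6, Orc1, Orc3 and Pola1 carry the core in roles with other ratios. Each run is written 5′ to 3′ on the strand of the gene, and overlapping matches merge into 1 capital stretch.
Mcm5, chr8:75109316-75109407, plus strand: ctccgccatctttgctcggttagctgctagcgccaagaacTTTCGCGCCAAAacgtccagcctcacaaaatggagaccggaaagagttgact
Mcm6, chr1:128359705-128359855, minus strand: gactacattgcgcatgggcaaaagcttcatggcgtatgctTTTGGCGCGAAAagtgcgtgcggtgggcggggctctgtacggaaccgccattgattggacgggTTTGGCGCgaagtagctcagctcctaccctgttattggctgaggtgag
Cdc6, chr11:98907973-98908060, plus strand: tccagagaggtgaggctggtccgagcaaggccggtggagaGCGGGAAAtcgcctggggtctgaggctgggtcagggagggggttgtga
Orc1, chr4:108579387-108579474, plus strand: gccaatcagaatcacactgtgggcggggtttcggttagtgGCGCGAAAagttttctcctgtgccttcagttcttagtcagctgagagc
Orc3, chr4:34614936-34615023, minus strand: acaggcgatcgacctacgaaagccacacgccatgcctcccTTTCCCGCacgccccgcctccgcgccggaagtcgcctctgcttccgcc
Pola1, chrX:93632246-93632333, minus strand: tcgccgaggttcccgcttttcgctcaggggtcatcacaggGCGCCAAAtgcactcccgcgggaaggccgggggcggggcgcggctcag

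Promoter windows (45 in all) were matched for 37 of the 45 members, and 15 of these (40.5%) held an E2F core, against 5.01% of the 9642 measured genes with a window and 2.27% of all 32851 windows. By role, the core was found in 4 of 5 MCM2-7 genes (Mcm3, Mcm5, Mcm6 and Mcm7), in both Cdc6 and Cdt1, and in 3 of 4 genes of polymerases delta and epsilon. ORC had it in 2 of 6 genes, Orc1 and Orc3, and the single-strand DNA binding complex and the deoxynucleotide genes in 0. The 15 genes with the core had a median log2 ratio of 0.36, with 12 above 0 and 3 below (Orc1, Orc3 and Pola1), and the 22 without it had a median of -0.13, with 10 above 0 and 12 below. Of the genes with the core, Cdc6, Cdt1, Mcm3, Mcm6, Mcm7, Pold3 and Rfc3 fell below 0 under scaling to ribosomal protein genes. So did each of the 10 genes without the core that were above 0, except Tk1. With the GC and length correction the medians were 0.12 and -0.01. Over the 9642 measured genes with a window, the uncorrected medians were 0.00 with the core and -0.02 without it. Of all 12135 measured genes, 5919 were above 0 and 6216 below it before the correction.

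Other motifs were nearer to their background. The CCAAT box (CCAAT or ATTGG) stood in 23 of 37 member promoters (62.2%), against 43.7% of measured genes, and the CHR element of cell cycle promoters (TTTGAA or TTCAAA) in 5 (13.5%), against 14.3%. The letter pattern searched for the kappaB motif, bound by NF-kB, was found in 0 of 37, against 2.02% of measured genes. With so rare a pattern, 37 promoters are too few to tell the members from other genes. Whether the member promoters hold NF-kB sites of another form was not tested. These windows are short and a match is a letter pattern, not a measured binding site.

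The CMG partners join MCM2-7 to form the active helicase, and Mcm10 supports its activation. Of these 6 genes 5 were higher in the p65-null library, though 4 under scaling by total counts or with the GC and length correction and 2 (Gins3 and Gins4) under scaling to ribosomal protein genes. Gins3, a subunit of the 4-part GINS complex, was at 18.6 CPM in wild-type and 27.7 CPM in p65-null cells, with a log2 ratio of 0.57 (0.37 to 0.78) and 0.65 corrected. Gins4 was at 61.5 and 86.6 CPM, a ratio of 0.49 (0.38 to 0.61).

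The other GINS subunits split, although they act in fixed proportion. Gins2 was at 67.3 CPM in wild-type and 82.6 CPM in p65-null cells, with a log2 ratio of 0.30 (0.18 to 0.41), while Gins1 was at 22.1 and 18.5 CPM, a ratio of -0.26 (-0.48 to -0.04). Cdc45, the helicase cofactor, was at 80.6 CPM in wild-type and 83.1 CPM in p65-null cells, and its interval held 0 (-0.06 to 0.15), with -0.01 corrected. Mcm10 was at 80.4 and 95.2 CPM, a ratio of 0.24 (0.14 to 0.35). Per kilobase Gins3 was the least and Gins4 the most abundant of the 6 genes in both libraries.

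DNA polymerase alpha-primase, which makes the RNA-DNA primers, had 2 genes higher and 2 lower. Pola1, its catalytic polymerase subunit (NM_008892, chromosome X, 93304766 to 93632387), was at 97.1 CPM in wild-type and 51.4 CPM in p65-null cells, 1.89-fold lower (1.74 to 2.05). Its transcript is 41.5% GC, and the corrected log2 ratio was -0.08 in place of -0.92. Pola2, the regulatory subunit, was at 97.5 and 112 CPM, a ratio of 0.20 (0.10 to 0.29) and -0.14 corrected.

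The primase subunits stood on opposite sides of 0 before the correction. Prim1, which synthesises the RNA primer, was at 68.3 CPM in wild-type and 61.0 CPM in p65-null cells, with a log2 ratio of -0.16 (-0.28 to -0.04) and 0.17 corrected. Prim2, the large primase subunit, was at 54.7 and 65.98 CPM, a ratio of 0.27 (0.15 to 0.39) and 0.33 corrected.

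Among the 5 genes of the leading and lagging strand polymerases, both catalytic subunits stood on opposite sides of 0. Pold1, the catalytic subunit of polymerase delta, was at 108 CPM in wild-type and 156 CPM in p65-null cells, with a log2 ratio of 0.53 (0.44 to 0.61) and 0.12 corrected, on the most GC-rich transcript of the 45 (60.7%). Pole, the catalytic subunit of polymerase epsilon, was at 169 and 122 CPM, a ratio of -0.47 (-0.55 to -0.39) and -0.40 corrected. Pole and Pold1 kept these signs under every scaling tried.

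The accessory subunits varied as well. Pole2 was at 19.6 CPM in wild-type and 27.1 CPM in p65-null cells, with a log2 ratio of 0.46 (0.26 to 0.66) that became 0.77 with the correction, the highest corrected ratio of the 45. Pold2 was at 113 and 115 CPM, with an interval of -0.06 to 0.12, and at -0.43 corrected. Pold3 was at 33.3 CPM in wild-type and 33.9 CPM in p65-null cells, the smallest difference of the 45 genes, with an interval of -0.14 to 0.19.

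The clamp Pcna, the ring that tethers polymerases to DNA, was at 257 CPM in wild-type and 230 CPM in p65-null cells, with a log2 ratio of -0.16 (-0.22 to -0.10) and 0.08 corrected. Per kilobase it was the most abundant of the 45 genes in the wild-type library, at 169 CPM per kb, and Mcm5 was so in the p65-null library. Of the 5 subunits of the clamp loader, Rfc1, the large subunit (chromosome 5, 65261852 to 65338617), stood apart. It was at 128 CPM in wild-type and 80.7 CPM in p65-null cells, 1.58-fold lower (1.48 to 1.69), with a corrected log2 ratio of -0.34.

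The 4 small loader subunits lay nearer to equal levels, and they did not share a direction. Rfc2 was at 110 CPM in wild-type and 118 CPM in p65-null cells, and Rfc3 at 77.9 and 83.5 CPM, with ratios of 0.11 and 0.10 on the log2 scale that became negative under scaling to ribosomal protein genes. Rfc4 was at 31.7 CPM in wild-type and 29.3 CPM in p65-null cells, with an interval that held 0 (-0.29 to 0.06) and a corrected ratio of 0.15. Rfc5 was at 93.0 and 79.5 CPM, a ratio of -0.23 (-0.33 to -0.12).

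The single-strand DNA binding complex RPA, which coats unwound template, differed by at most 0.19 on the log2 scale. Rpa1, the main DNA-binding subunit, was at 331 CPM in wild-type and 378 CPM in p65-null cells, a ratio of 0.19 (0.14 to 0.24). Rpa2, the subunit phosphorylated under replication stress, was at 76.1 and 78.5 CPM. Rpa3, the small subunit, was at 24.6 CPM in wild-type and 22.1 CPM in p65-null cells. The intervals of Rpa2 and Rpa3 held 0, and with the correction Rpa2 was at -0.15 and Rpa3 at 0.54.

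Both genes of Okazaki fragment maturation were higher in the p65-null library, though Lig1 alone was so with the GC and length correction or under scaling to ribosomal protein genes. Lig1, the ligase that seals the fragments (NM_010715, chromosome 7, 13277175 to 13311426), was at 75.2 CPM in wild-type and 119 CPM in p65-null cells, 1.58-fold higher (1.48 to 1.69), with a corrected log2 ratio of 0.41. Its annotated span overlaps Zswim9 by 1547 bases, a gene at 3.23 CPM in wild-type and 5.18 CPM in p65-null cells. Fen1, the flap nuclease, was at 126 and 144 CPM, a ratio of 0.19 (0.10 to 0.27), and -0.11 corrected.

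The deoxynucleotide genes split by enzyme subunit. Rrm2, the regulated subunit of ribonucleotide reductase, was at 214 CPM in wild-type and 252 CPM in p65-null cells, with a log2 ratio of 0.24 (0.17 to 0.30) and 0.44 corrected. Rrm1, the large subunit of the same enzyme, was at 436 and 390 CPM, a ratio of -0.16 (-0.21 to -0.11) and 0.29 corrected.

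Thymidine kinase, encoded by Tk1, was at 170 CPM in wild-type and 229.8 CPM in p65-null cells, with a log2 ratio of 0.44 (0.37 to 0.50) and 0.03 corrected. Tyms, the thymidylate synthase gene, was at 151 and 135 CPM, a ratio of -0.16 (-0.24 to -0.08). It was read from a transcript annotated as non-coding (NR_033402), the only Tyms transcript in the table. The pseudogene Tyms-ps has its own values there, and whether it shares reads with Tyms was not tested. Salvage and synthesis of thymidylate thus lay on opposite sides of 0, and with the correction both were close to 0, at 0.03 for Tk1 and -0.02 for Tyms.

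**Figure D5:**
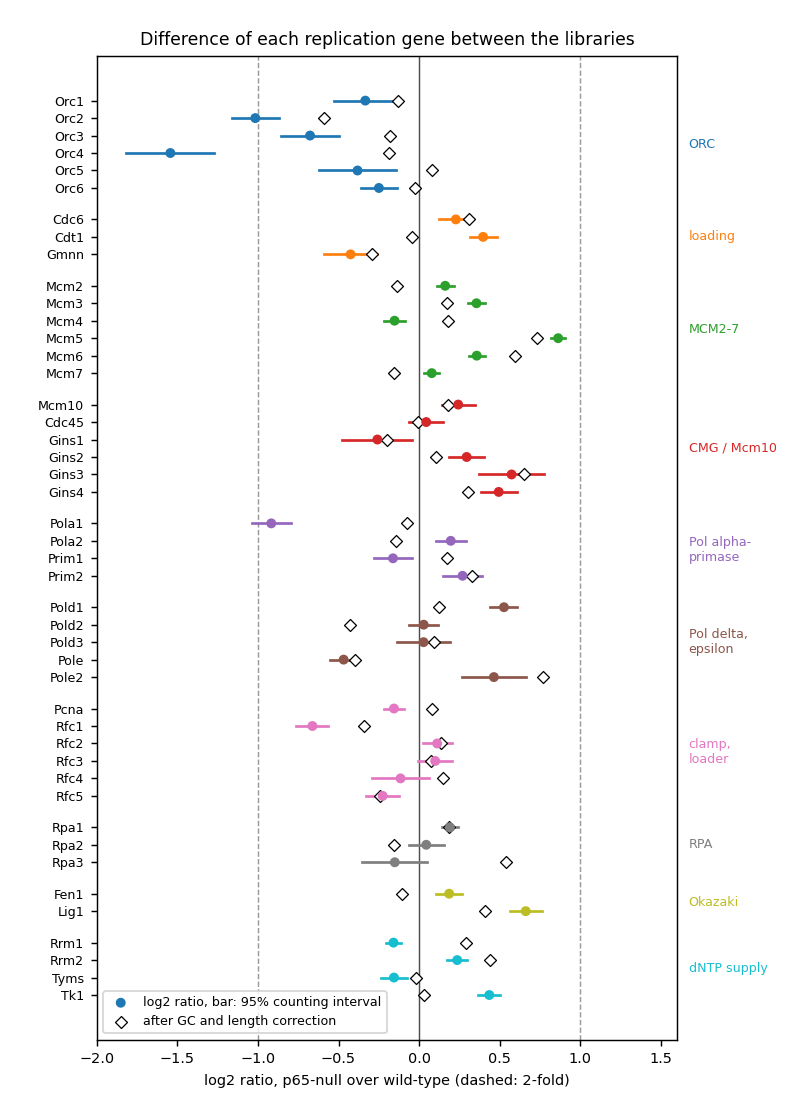
Log2 ratio of p65-null over wild-type level for each of the 45 replication genes, grouped and coloured by role, with bars for the 95% counting interval and open diamonds for the ratio after GC and length correction. All 6 ORC points lie left of 0 and 5 of 6 MCM2-7 points right of it (1 of 6 under scaling to ribosomal protein genes), while 0 diamonds pass the dashed 2-fold lines.

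The order of the genes by level was much the same in both libraries (Spearman 0.935 over the 45 genes, which share both libraries). Within roles, the median log2 ratio ran from -0.53 for ORC to 0.42 for Okazaki fragment maturation, with 0.27 for the CMG partners, 0.26 for MCM2-7, 0.23 for the loading factors, 0.04 for RPA and for the deoxynucleotide genes, 0.03 for polymerases delta and epsilon, 0.02 for polymerase alpha-primase and -0.14 for the clamp and its loader. With the correction, the medians of the loading factors and of the clamp and its loader turned, to -0.04 and 0.08. Under scaling to ribosomal protein genes only the median of Okazaki fragment maturation stayed above 0, at 0.02. Under scaling by total counts the medians of both polymerase groups, RPA and the deoxynucleotide genes fell just below 0, at -0.04 to -0.01. The annotated spans of 13 members overlap a protein-coding gene of the same table, and their reads may be shared.

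Other genes of the replication programme were read from lists of pathway genes, as counts beside the same 13.7% and 12.2% of all measured genes. Among 11 origin firing kinases and factors, 2 had levels at least 2-fold lower in p65-null cells and 0 higher. Both make up DDK, the kinase that phosphorylates the loaded MCM ring. Its activator Dbf4 was at 96.0 CPM in wild-type and 30.4 CPM in p65-null cells, 3.15-fold lower (2.85 to 3.497), and its kinase Cdc7 at 28.2 and 11.5 CPM, 2.45-fold lower (2.07 to 2.92). With the correction Dbf4 was at a log2 ratio of -1.31 and Cdc7 at -0.96, so Dbf4 stayed past 2-fold where Orc2 and Orc4 did not.

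Of 18 fork protection and accessory replisome genes, 0 were 2-fold apart, with a median log2 ratio of -0.06 and 0.11 corrected, and of 10 genes of replication-coupled chromatin assembly 0 were, with a median of -0.11 and 0.01 corrected. Both medians were also above 0 with upper quartile factors. Replication checkpoint genes had 3 of 10 at least 2-fold lower and 0 higher. These were Hus1, a subunit of the checkpoint clamp (31.2 CPM in wild-type and 13.3 CPM in p65-null cells), its loader Rad17 (21.3 and 9.04 CPM) and the kinase Atr (28.2 and 12.7 CPM). None of the 3 stayed past 2-fold with the correction, at log2 ratios of -0.73, -0.74 and -0.16. Translesion synthesis genes had 2 of 8 lower, the bypass polymerases Polh (100.1 and 46.8 CPM) and Rev3l (31.5 and 15.3 CPM), at -0.95 and -0.19 corrected. With upper quartile factors 0 of 8 were at least 2-fold lower, against 11.7% of all measured genes.

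Among 21 further nucleotide genes, 4 had levels at least 2-fold lower in p65-null cells and 0 higher. The deoxycytidine kinase Dck was at 46.5 CPM in wild-type and 14.4 CPM in p65-null cells, 3.23-fold lower (2.78 to 3.75). Rrm2b, the p53-inducible partner of Rrm1, was at 7.78 and 1.88 CPM, a log2 ratio of -2.05 (-2.68 to -1.47) and -0.99 corrected. Ppat, which begins purine synthesis, was at 92.6 and 42.1 CPM, a ratio of -1.14 and -0.66 corrected, and Mtap, of methionine salvage, had 3407 wild-type fragments and 1 p65-null fragment.

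G1/S regulators, which time the transcription of these genes, included larger differences. Of 29 measured, 5 were at least 2-fold lower and 1 higher in the p65-null library, with a median log2 ratio of -0.41, or -0.28 corrected. With scaling to ribosomal protein genes 10 were at least 2-fold lower, against 24.95% of all measured genes. Cdkn2a, encoding the inhibitors p16 and p19ARF, had 1694 wild-type and 3 p65-null fragments. Cdkn2b, encoding p15, had 614 and 0, 146-fold lower with the 0 set to 3 fragments and at least 118-fold lower by its counting interval. Both genes, like Mtap, were thus nearly or wholly absent from the p65-null library, and whether these absences are linked was not tested. The kinase Cdk6 was at 123 CPM in wild-type and 41.4 CPM in p65-null cells, a ratio of -1.57 (-1.70 to -1.44) and -0.99 corrected. The cyclin genes Ccnd2 and Ccne2 were the others past 2-fold, at ratios of -1.19 and -1.47, and at -0.89 and 0.04 corrected. Myc and E2f2 passed 2-fold only with the correction, at -1.085 and -1.03 in place of -0.81 and -0.78. After it, 4 of the 29 genes were at least 2-fold lower and 1 higher, against 9.17% and 11.2% of all measured genes. Cdkn1a, encoding the inhibitor p21, was at 3.798 and 28.3 CPM, 7.46-fold higher (5.87 to 9.58). E2f1 was at 32.4 CPM in wild-type and 44.8 CPM in p65-null cells, a ratio of 0.47 (0.31 to 0.62) and 0.08 corrected, and Rb1 was at 3.63 and 2.61 CPM, with an interval that held 0 (-1.07 to 0.09) and a corrected ratio of 0.37.

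Of 30 genes of G2 and mitosis, 3 had levels at least 2-fold lower in p65-null cells and 0 higher, with a median log2 ratio of -0.18. The 3 were the checkpoint kinase gene Bub1 and the centromere genes Cenpe and Cenpf, at ratios of -1.10, -1.04 and -1.01, and at -0.29, -0.31 and -0.25 corrected. With upper quartile factors 0 of 30 were at least 2-fold lower, against 11.7% of all measured genes. With scaling to ribosomal protein genes 8 of 30 were, against 24.95%. Mki67, the gene of the proliferation marker Ki-67, was at 398 CPM in wild-type and 297 CPM in p65-null cells, a ratio of -0.42 (-0.48 to -0.37) and 0.01 corrected. How many cells were in S phase in either culture was not measured.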

How the data were processed

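RNA was measured by sequencing in 1 wild-type and 1 p65-null library of immortalised MEFs. Tools in the submitters' processing notes are edgeR, HOMER, STAR 2.4 and bcl2fastq 2.16, with the build mm10 and no roles. How reads were counted, with which annotation and whether by strand is not stated in the sources. The deposited values, in a table named for raw counts, are a scaled signal: both columns sum to about the same total, 18117934 and 18117930. This unit differs from the counts assumed in the plan. The values low enough to be checked, 15122 for wild-type and 15214 for p65-null, all were whole multiples (100%, within 0.0055) of a step of 0.436 or 0.587, and 1 fragment was taken as 2 steps. A count test could not be fitted to the recovered reads, because 2 libraries of 2 genotypes leave no residual degrees of freedom.

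Transcripts were matched to a RefSeq gene table (GRCm38.p6, 16739) and GENCODE M21 (87), and 55 were unmatched, with 3.13% and 3.84% of fragments. edgeR 4.0.16 (R 4.3.3) gave TMM factors of 1.02 and 0.981. Measured genes averaged at least 1 CPM over both libraries. A count of 0 was set to 3 fragments. Intervals are Clopper-Pearson at 95% and cover counting error only, as fragments carried no molecular tags. GC content and length came from the GENCODE match of each RefSeq transcript. Where none was matched, the longest GENCODE transcript of the gene was used. The correction was a loess fit (span 0.3) over all measured genes with a known transcript sequence. The ratio step was checked on simulated counts.

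The members, their 10 roles, the 8 pathway lists, the 6 marker lists and the naming rule were chosen with earlier results of these data known. Named were all members, Rela, Cdkn2a, Cdkn2b, Cdkn1a, Rb1, E2f1, Mki67 and, per pathway list, up to 3 genes each way with a ratio past 2-fold, ranked by the interval end nearest 0. Ppat, Ccnd2, Ccne2, Myc, E2f2, Thy1, the overlapping neighbours and the markers at 0 were named after their values were seen. Alternatives were other scalings (total counts, upper quartile, DESeq2 1.42.0 size factors, ribosomal protein genes), thinning, other minima, leaving out the 10 most abundant genes, a prior count of 2, the interval end and the GC and length correction. The background of genes as abundant as the members was added after seeing the data.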

Additional observations from a re-analysis of the deposited data

How the results depend on the processing

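The members at least 2-fold lower, at least 2-fold higher, at least 1.5-fold lower and at least 1.5-fold higher numbered 2, 0, 5 and 2, with a median log2 ratio of 0.04. Each count stayed within 1.5 times of these under DESeq2 size factors, total counts, thinning to equal depth, no expression minimum, a minimum of 5 CPM, a prior count of 2 and leaving out the 10 most abundant genes. With upper quartile factors, 1 was 2-fold lower, 3 were 1.5-fold lower and 5 were 1.5-fold higher, against 11.7%, 21.3% and 26.3% of all measured genes. With scaling to ribosomal protein genes, 5 were 2-fold lower, 12 were 1.5-fold lower and 0 were 1.5-fold higher, with a median of -0.36, against 24.9%, 42.9% and 12.1% of all measured genes; this scaling moves all genes alike, and among all genes 2-fold apart the share higher was 22.9%, against 46.9%. With the interval end nearest 0 in place of the ratio, which is smaller by construction, 1 was 2-fold lower, 3 were 1.5-fold lower and 1 was 1.5-fold higher. Over all measured genes these shares were 9.10%, 17.9% and 15.1%. With the GC and length correction, 0 were 2-fold lower, 1 was 1.5-fold lower and 4 were 1.5-fold higher. The shares over all measured genes were then 9.17%, 19.7% and 20.2%. With this correction the share higher among all genes 2-fold apart was 55.0%, and the cause was not tested. No paired analysis was possible because each genotype has 1 library and no test was run. Counting error limits Orc4 most, with 141 p65-null fragments; spread between libraries of a genotype was not measured.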
